A study of Phanerodontia chrysosporium with 18 samples.

Results

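The A1 family of aspartic peptidases of the white-rot fungus Phanerochaete chrysosporium (listed by GEO as Phanerodontia chrysosporium) was followed on wood, apart from its 4 best-named members asp1 to asp4. Members were the gene models whose curated function or protein domain description in the deposited table names peptidase A1 or aspartyl protease. This text matched 59 of 13602 models, and 55 remained after asp1, asp2, asp3 and asp4 were left out by protein number. All 55 carried the pepsin-type Asp domain and the description peptidase A1, so none was matched by the words aspartyl protease alone. Both come from the same deposited annotation, so the domain is no separate check of the match. Strain RP-78 was grown on thin sections of spruce (Picea glauca) sapwood laid in agar that held nitrogen and mineral salts and no carbon source. RNA was taken at 40 h or at 96 h after inoculation, with 3 libraries at each time, each from 20 pooled sections. The strain, wood and medium were the same at both times, so time on wood is the contrast that the labels give. No index sequence was used at both times, so index and time cannot be told apart. Each library was sequenced in 3 lanes, which were averaged and counted once.

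Pepsin-type peptidases fold into a pair of similar lobes, and an aspartate from each lobe forms the active site in the cleft between them. Most are made as inactive precursors with a signal peptide and a propeptide, and work best in acid. Fungi secrete some of them to break down protein outside the cell and keep others in the vacuole or at the cell surface. Wood is poor in nitrogen, and secreted peptidases are one route by which wood-decay fungi can recover it from protein.

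Levels are given in RPKM, read numbers divided by transcript length and by the size of the sequenced lane, as the authors deposited them. The sources used here give no total read numbers. The smallest non-zero values gave relative depths of 1, 0.717 and 0.941 for libraries 1, 2 and 3 at 40 h. At 96 h they gave 0.48, 0.503 and 0.709. A low value in 96 h library 1 or 2 thus stands for fewer reads than the same value in any 40 h library. Library 3 at 96 h was about as deep as library 2 at 40 h. Summed RPKM over all models was 832939 ± 5708 at 40 h and 784314 ± 4610 at 96 h (SD, n = 3). RPKM is a share of the reads of a library, so it gives relative levels only. A change in the amount of fungus or in total RNA per cell is not measured. Library 2 at 96 h held the highest of the 3 values of its time for 34 of 52 tested members and for 6538 of 11725 tested models.

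The members spanned more than 3 orders of magnitude and did not move as one. At 40 h, 11 members had a mean of at least 100 RPKM, 22 lay between 10 and 100 RPKM and 22 below 10 RPKM. At 96 h these numbers were 10, 20 and 25. A filter of at least 1 RPKM in at least 3 libraries left 52 members for testing, of which limma's moderated test called 13 higher and 21 lower at 96 h (adjusted p below 0.05). Those 34 are 65.4% of the tested members, against 62.0% of all 11725 tested models. By direction, 25.0% of the members were higher against 26.3% of all models, and 40.4% lower against 35.6%. Of the 52 tested members, 8 were called with a rise of 2-fold or more and 9 with such a fall. Both are larger shares than among all 11725 tested models, where 8.35% rose and 7.47% fell that far. This difference in shares was not tested. The median log2 fold change was -0.07 over the tested members and -0.08 over all tested models. Scaled by a trimmed mean or by median ratios, the members' median was -0.014 or -0.011 and that of all models -0.0085 or -0.0050. The 3 libraries of each time did not overlap for 38 members, 73.1%, against 69.3% of all models. Log2 fold changes are of log2(RPKM + 1), 96 h over 40 h, which understates the change of low genes.

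**Figure D1:**
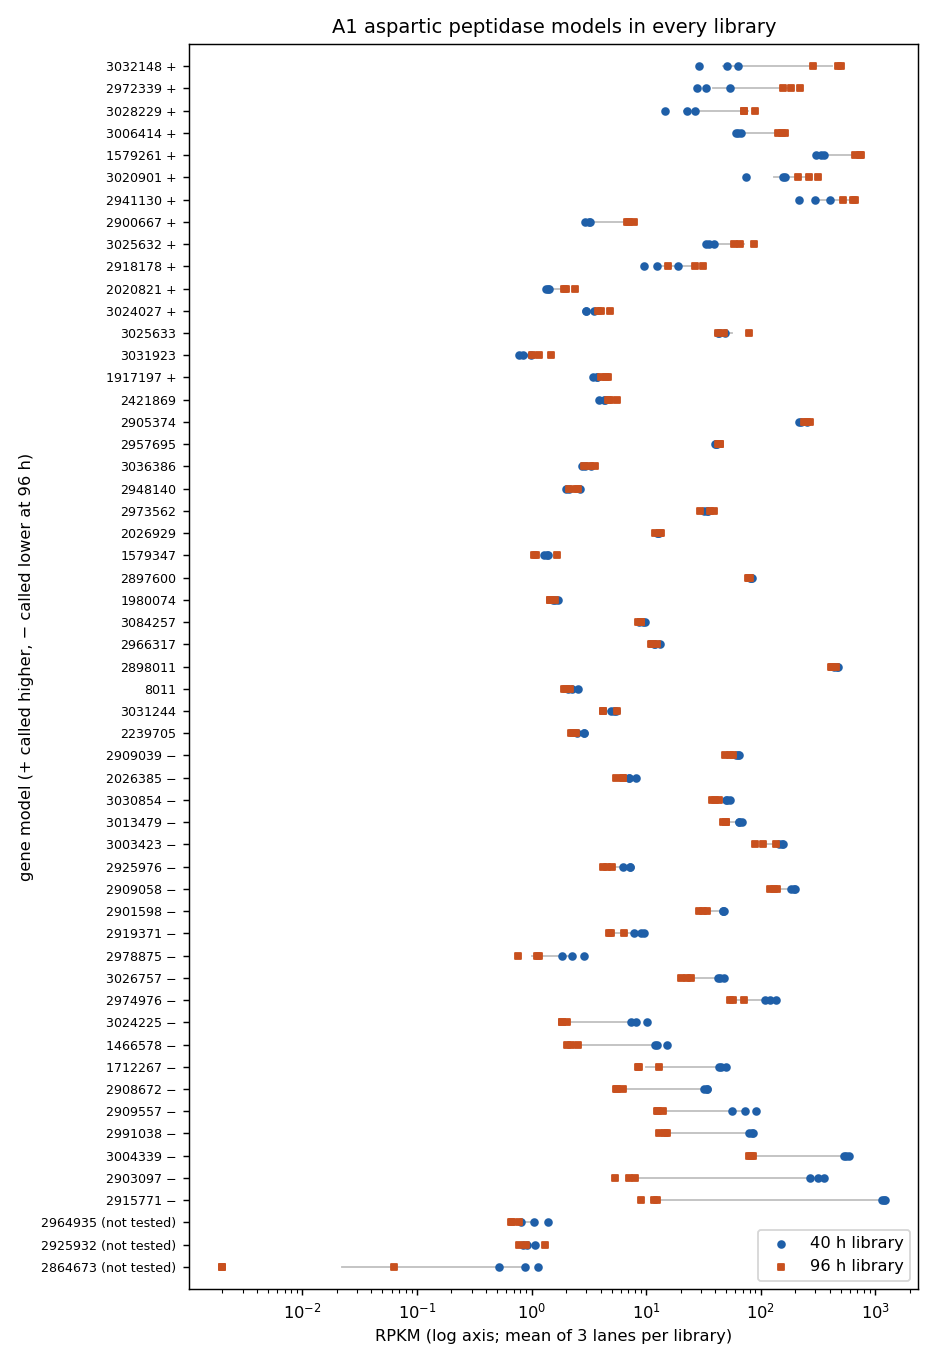
RPKM of each of the 55 members in the 3 libraries at 40 h (circles) and the 3 libraries at 96 h (squares) on a log axis, ordered by log2 fold change, with a grey line joining the means. The 9 largest falls stand at the bottom above the 3 untested members and the 8 largest rises at the top. The groups of libraries are separate in all 17, which were called on these same libraries, so this is no further support. Over all tested models, called or not, the share is 69.3%.

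The largest fall was that of 2915771, curated as a family A1A peptidase. It stood at 1146, 1224 and 1202 RPKM in libraries 1, 2 and 3 at 40 h and at 11.8, 12.4 and 8.94 RPKM at 96 h. Its log2 fold change was -6.64 (SE 0.11, adjusted p = 2.08e-08). At 40 h it was the most abundant member and the 61st most abundant of all 13602 models by mean RPKM, and at 96 h it ranked 7195th. The family A1 peptidase 2903097 was at 359, 320 and 268 RPKM at 40 h and at 7.13, 7.97 and 5.39 RPKM at 96 h. Its log2 fold change was -5.34 (SE 0.15, adjusted p = 1.28e-07), or -4.76 with a pseudocount of 5. The lowest 40 h library was 92.7 times the highest 96 h library in the first model and 33.6 times in the second.

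The peptidase curated as asp11 (3004339), second in abundance at 40 h, fell less. It was at 587, 559 and 529.8 RPKM at 40 h and at 82.4, 84.9 and 79.3 RPKM at 96 h, and its log2 fold change was -2.75 (SE 0.07, adjusted p = 1.03e-07). Its 96 h libraries lay within a narrow band well under its 40 h libraries. At 96 h it ranked 11th of the 55 members by mean RPKM.

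Another 6 members fell by 2-fold or more from lower levels. The model 2991038 was at 79.1, 85.5 and 83.9 RPKM at 40 h and at 13.1, 15.1 and 14.5 RPKM at 96 h (log2 fold change -2.46, SE 0.07, adjusted p = 1.8e-07). The model 2909557 was at 91.2, 72.4 and 55.8 RPKM at 40 h and at 12.7, 12.4 and 14.1 RPKM at 96 h (log2 fold change -2.37, SE 0.16, adjusted p = 8.7e-06). Its 40 h libraries were spread widely, yet the lowest of them was far above the highest at 96 h. The model 2908672 was at 33.9, 32.1 and 34.3 RPKM at 40 h and at 5.58, 5.48 and 6.24 RPKM at 96 h (log2 fold change -2.35, SE 0.07, adjusted p = 2e-07). These 3 models carry the curated label peptidase family A1, and the 2 that follow are labelled family A1A.

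The model 1712267 was at 49.4, 45.4 and 43.2 RPKM at 40 h and at 8.43, 13.0 and 8.62 RPKM at 96 h, highest in library 2 at that time (log2 fold change -2.12, SE 0.15, adjusted p = 1.18e-05). The model 1466578 was at 15.1, 12.3 and 12.1 RPKM at 40 h and at 2.06, 2.53 and 2.20 RPKM at 96 h (log2 fold change -2.11, SE 0.10, adjusted p = 1.62e-06). The model 3024225, without a curated function, was at 7.35, 8.19 and 10.3 RPKM at 40 h and at 2.03, 1.86 and 1.84 RPKM at 96 h (log2 fold change -1.71, SE 0.11, adjusted p = 7.93e-06). For all 3 the times did not overlap. With the pseudocount at 5 the log2 fold changes of 1466578 and 3024225 were -1.32 and -0.97, and at 0.1 they were -2.49 and -2.10.

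A further 12 members passed the test with falls under 2-fold, with log2 fold changes between -0.98 and -0.24 and a median of -0.53. In all 12 the libraries of the times were separate, as in 33 of the 34 called members. The test that called them used these same libraries, so this is no further support. Over all tested models, called or not, the share was 69.3%. The largest of these were 2974976, which had means of 121 ± 13.4 and 61.0 ± 9.54 RPKM (SD, n = 3), and 3026757, with means of 44.9 ± 2.86 and 22.5 ± 2.22 RPKM. The calls of 3 of the 12 were lost when certain libraries were left out, 1 at a time. The member 3003423 had an adjusted p of 0.0169 in limma's test and 0.0589, 0.0535 and 0.0567 without 40 h library 1, 40 h library 2 or 96 h library 3. The member 2026385 had 0.023, and 0.0937 and 0.0563 without 40 h library 3 or 96 h library 1. The member 2909039 had 0.0229, and between 0.0538 and 0.08 without 40 h library 2 or 3 or 96 h library 1 or 3.

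Rises were fewer and smaller in fold, but several started from high levels. The family A1 peptidase 3032148 was at 50.3, 62.8 and 28.9 RPKM at 40 h and at 284, 502 and 476 RPKM at 96 h. The rise, 3.15 on the log2 scale (SE 0.31, adjusted p = 6.2e-05), was the largest among the tested members, and by mean RPKM it moved from rank 19 to rank 4 of the 55. The family A1 peptidase 2972339 was at 33.6, 53.5 and 27.7 RPKM at 40 h and at 219.7, 185 and 158 RPKM at 96 h (log2 fold change 2.30, SE 0.23, adjusted p = 6.81e-05). The model 3028229 was at 23.0, 26.5 and 14.5 RPKM at 40 h and at 89.7, 71.5 and 71.5 RPKM at 96 h (log2 fold change 1.85, SE 0.20, adjusted p = 0.000121). The lowest 96 h library was 4.52, 2.96 and 2.70 times the highest 40 h library in these 3 models.

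The member most abundant at 96 h was 1579261, another family A1 peptidase. It was at 357, 303 and 334 RPKM at 40 h and at 756, 671 and 735 RPKM at 96 h (log2 fold change 1.12, SE 0.09, adjusted p = 2.65e-05). The model 2941130, second at 96 h, was at 301, 406 and 215 RPKM at 40 h and at 634, 666 and 522 RPKM at 96 h (log2 fold change 1.02, SE 0.22, adjusted p = 0.00406). The peptidase curated as asp5 (3020901) was at 157, 164 and 74.2 RPKM at 40 h and at 314, 213 and 267 RPKM at 96 h (log2 fold change 1.07, SE 0.30, adjusted p = 0.0144). The last 2 had gaps between the times that were small beside the spread within a time, though no library crossed over.

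The model 3006414 was at 60.9, 63.7 and 67.0 RPKM at 40 h and at 142, 163 and 154 RPKM at 96 h (log2 fold change 1.25, SE 0.08, adjusted p = 5.37e-06). The model 2900667 stayed low, at 3.15, 2.94 and 3.23 RPKM at 40 h and at 7.79, 6.84 and 7.13 RPKM at 96 h (log2 fold change 1.00, SE 0.08, adjusted p = 1.63e-05). Replicate libraries of these 2 lay close together at each time. The other 5 rises past the threshold had log2 fold changes between 0.21 and 0.94. In 4 of them the times were separate, and in 2918178 they overlapped, with 12.5, 19.1 and 9.49 RPKM at 40 h and 15.6, 31.6 and 26.8 RPKM at 96 h. Its adjusted p of 0.045 in limma's test rose to between 0.0932 and 0.137 without 40 h library 1 or 3 or without 96 h library 2 or 3, and was 0.0571 with no filter. The call of 1917197 (adjusted p = 0.0444) was lost without each library except 96 h library 1, with adjusted p up to 0.151, and with barcode number as a block (0.0687), and that of 3024027 (0.02) without 40 h library 2 (0.0741) or 3 (0.0675).

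**Figure D2:**
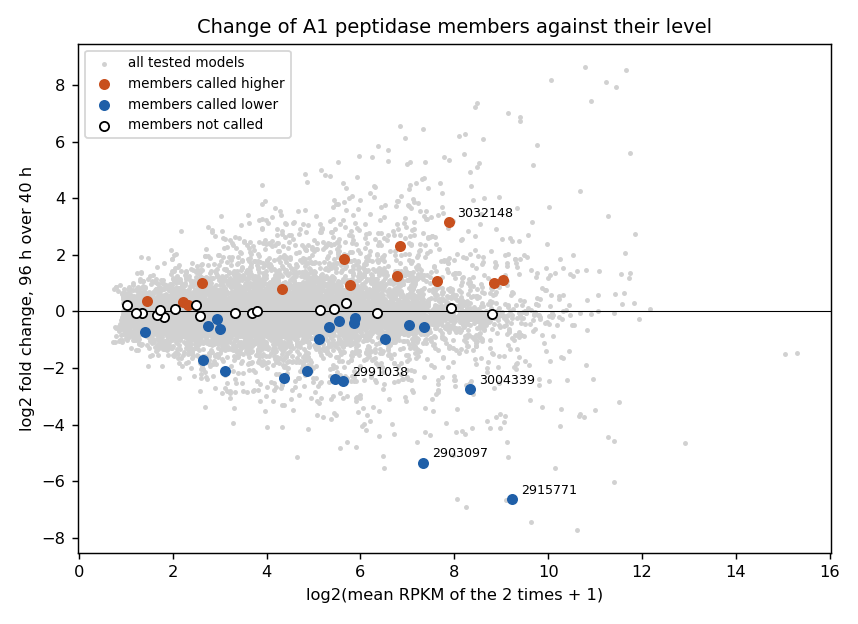
Log2 fold change (96 h over 40 h) against log2 of the mean RPKM of the 2 times plus 1, for all tested models in grey and for the 52 tested members, filled where called higher or lower and open where not called. The falls of 2915771 and 2903097 lie far below the other members, and the uncalled members lie near 0 at every level.

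The 40 h libraries differed among themselves in several of the members that rose. Of the 8 members at least 2-fold higher, 3032148, 2972339, 3028229, 2941130 and asp5 differed among the 40 h libraries with coefficients of variation of 28.8% to 37.8%. All 5 were highest in library 2 and lowest in library 3, by 1.82 to 2.21 times. The other 3 risers, 1579261, 3006414 and 2900667, had coefficients of 4.75% to 8.15% and no shared order. The order of libraries, 2 highest and 3 lowest at 40 h, thus held for 5 of the 8 members (62.5%). In the whole table it held for 283 (28.9%) of the 979 models at least 2-fold higher. The 5 were grouped by their spread, and the 979 were not. The median coefficient of variation at 40 h was 8.31% over those 979 models and 6.86% over the 9 members at least 2-fold lower. Without 40 h library 3, 6 members were at least 2-fold higher. Library 2 was also the shallowest at 40 h, and its part in this order was not tested.

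**Figure D3:**
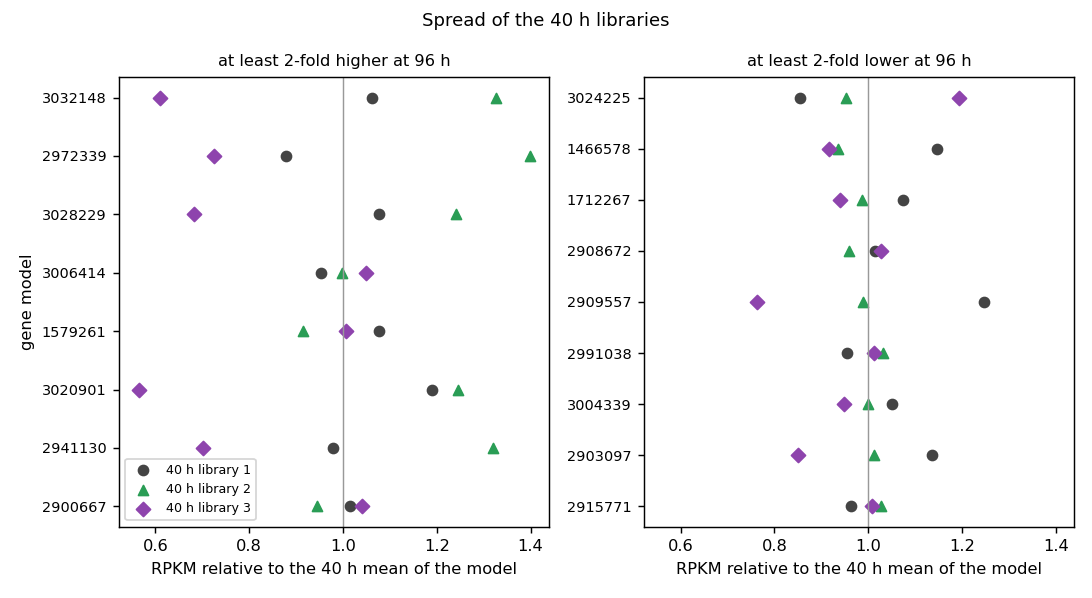
RPKM of each 40 h library relative to the 40 h mean of the model, for the 8 members at least 2-fold higher at 96 h (left) and the 9 at least 2-fold lower (right). On the left, 5 models have library 3 lowest and library 2 highest, with a spread wider than in most models on the right.

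Of the 52 tested members 18 did not pass the test, with log2 fold changes between -0.18 and 0.28. The most abundant of them, 2898011, was the third most abundant member at both times. It was at 437, 472 and 462 RPKM at 40 h and at 413, 451 and 422 RPKM at 96 h, so that the times overlapped (log2 fold change -0.09, SE 0.08, adjusted p = 0.329). Its domain match was the strongest of the family, with an E-value of 6.1e-151. The next in level, 2905374, had means of 232 ± 20.2 and 255 ± 16.7 RPKM (SD, n = 3; adjusted p = 0.216 in limma's test). In 5 of the 18 the libraries of the times were separate, by small amounts. Over all tested models 69.3% were separate and 62.0% called, so separate models without a call occurred there too. Without library 2 of the 96 h group 3 of the 18 passed: 2239705 (adjusted p = 0.0492), 3031244 (0.0134) and 3031923 (0.0217). The last passed the filter through the 96 h libraries alone.

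The 3 members left untested were close to the limit of detection. The model 2864673 was at 0.522, 1.13 and 0.883 RPKM at 40 h, at 0.0627 RPKM in library 1 at 96 h and at 0.002 RPKM in the other 96 h libraries. The value 0.002 is the smallest in the table and was taken as no reads, so no fold change is given. Its domain match spans 119 residues, against a median of 324 for the members. The models 2925932 and 2964935 had means of 0.946 and 1.08 RPKM at 40 h and of 0.996 and 0.704 RPKM at 96 h.

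The summed level of the family was lower at 96 h. The 55 members summed to 5102, 5238 and 4775 RPKM in libraries 1, 2 and 3 at 40 h and to 4059, 4332 and 4100 RPKM at 96 h. Every 96 h library was below every 40 h library. At 40 h the sum made up 0.605% ± 0.0301 of the RPKM of all models, and at 96 h 0.531% ± 0.0186 (SD, n = 3). The largest losses were those of 2915771, asp11 and 2903097, with means of 1191, 559 and 316 RPKM at 40 h and 11.02, 82.2 and 6.83 RPKM at 96 h. Without 2915771, left out because it fell most, the other 54 summed to 3956, 4014 and 3574 RPKM at 40 h and to 4047, 4320 and 4091 RPKM at 96 h. As a share of the family's sum, 2915771 held 23.6%, asp11 11.1%, 2898011 9.07%, 1579261 6.58% and 2903097 6.26% at 40 h. At 96 h the leading shares were 17.3% for 1579261, 14.6% for 2941130, 10.3% for 2898011, 10.1% for 3032148 and 6.35% for asp5. Of the 10 most abundant members at each time, 7 were the same.

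**Figure D4:**
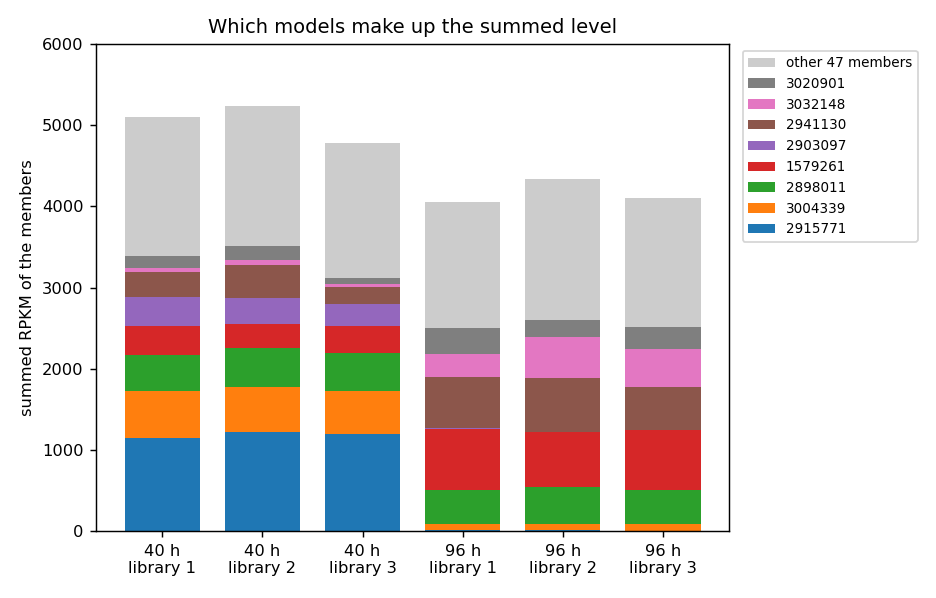
Summed RPKM of the 55 members in each library, stacked by the 8 models that were among the 5 most abundant at either time, with the other 47 members in light grey. The block of 2915771 at the foot of the 40 h bars is missing at 96 h, where 1579261, 2941130 and 3032148 take more of a slightly lower total.

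A predicted signal peptide, the mark of entry into the secretory pathway, was listed for 44 of the 55 members, with probabilities between 0.977 and 1 and cleavage positions between 17 and 26. The 11 without a listed value included 6 whose domain match began before residue 20. No member with a listed signal peptide had a match that began so early. One of the 6 was asp5. Of 42 tested members with a signal peptide 11 rose (26.2%) and 16 fell (38.1%), close to the 26.3% and 35.6% of all tested models. Of the 10 without, 2 rose and 5 fell. The first group summed to 4489 ± 176 RPKM at 40 h and 3668 ± 181 at 96 h, and the second to 549.7 ± 74.3 and 496 ± 35.4 (SD, n = 3). A signal peptide was listed for 6 of the 8 members at least 2-fold higher and for 7 of the 9 at least 2-fold lower, beside 44 of all 55. No source used here says how reads common to similar genes were counted, which leaves the level of each single gene uncertain by that amount.

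A curated function was given for 14 of the 55 members. Of these 4 rose and 8 fell, each by at least 2-fold, and 2 did not pass. Of the 38 tested members without one 9 rose and 13 fell, and 4 and 1 of these changes reached 2-fold. Over all tested models 26.3% were called higher and 35.6% lower, and 8.35% and 7.47% with a change of 2-fold or more. Curation by the authors may have followed these same measurements, so the larger changes of the curated models are not independent evidence.

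Among the 4 peptidases left out by name, asp1 fell from 1093 ± 220.2 to 9.60 ± 1.23 RPKM. asp2 fell from 2230 ± 332 to 47.0 ± 7.74 RPKM, the same direction as 2915771 and 2903097. The domain match spans residues 108 to 417 in both asp2 and 2915771, and reads common to the pair were not examined. asp3 rose from 5.63 ± 1.54 to 148 ± 70.5 RPKM, and asp4 rose from 22.2 ± 6.56 to 222 ± 35.9 RPKM (SD, n = 3), the direction of 3032148. The 4 together made up 0.402% of the RPKM of all models at 40 h and 0.0544% at 96 h, against 0.605% and 0.531% for the 55 members.

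Other peptidases and transporters of protein-derived nitrogen also changed in both directions. Serine peptidases of families S8, S10, S28 and S53 were higher for 20 and lower for 16 of 51 tested models, and their median log2 fold change was 0.03. The list also holds 13 models matched by a tripeptidyl-peptidase domain of family S33. Its largest changes were rises, of the S53 peptidases 3076290, from 0.852 ± 0.0708 to 53.2 ± 4.46 RPKM, and prt53D (3023484), from 16.7 ± 1.25 to 239.8 ± 28.5 RPKM. The first was below 1 RPKM in every 40 h library and passed the filter through its 96 h libraries alone. Glutamic peptidases, acid enzymes of another fold, were higher for 3 and lower for 6 of 10, with a median of -0.53. The G1 peptidase 3003814 fell from 3238 ± 813 to 239.9 ± 46.7 RPKM, and 2904689 fell from 2984 ± 529 to 229.7 ± 32.9 RPKM. Metallopeptidases were higher for 3 and lower for 3 of 8. Among them the M35 peptidase 7506 fell from 5194 ± 1147 to 218 ± 45.4 RPKM, and the M28 peptidase 2953971 rose from 46.4 ± 7.06 to 126 ± 18.3 RPKM.

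Oligopeptide transporters, which import the products of peptidases, were higher for 6 and lower for 3 of 16 tested models, and the median was 0.25 on the log2 scale. Their 2 largest changes were falls, of 2969194 from 1009.9 ± 34.4 to 77.3 ± 12.0 RPKM and of 2979530 from 159 ± 5.59 to 49.1 ± 26.5 RPKM. Amino acid permeases and transporters were higher for 5 and lower for 14 of 27, with a median of -0.33. The amino acid transporter 3021990 fell from 26.7 ± 2.66 to 3.35 ± 0.721 RPKM, and 2907852 rose from 5.91 ± 0.161 to 25.4 ± 6.29 RPKM. Of 2 ammonium transporter models 1 was higher (3025869, from 382 ± 29.2 to 736 ± 109 RPKM). Over all 6 lists 38 of 114 tested models were higher and 42 lower, 70.2% in all, beside 65.4% of the A1 members and 62.0% of all models.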

How the data were processed

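Poly-A RNA of 6 section pools was sequenced, per the labels' protocols. CASAVA 1.8.2 is named in the submitters' processing notes. No aligner, counter, build or annotation is given in the sources used here. The authors deposited 18 columns of RPKM (6 libraries, each in 3 lanes), with their mean RPKM at each time, a ratio of the means, a p-value and a signal peptide probability (a fraction from 0 to 1), per the file headers. The barcode number in the titles identifies the library (each number goes with a separate index sequence), and lanes were averaged on the linear scale. Replicates are labelled only as separate samples, so the p-values rest on the spread among these 6 libraries, which may be technical.

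The 11725 models that reached 1 RPKM in 3 or more libraries were fitted as log2(RPKM + 1) with limma 3.58.1 in R 4.3.3 (variance trend, no block), with Benjamini-Hochberg adjustment over all of them, and called below 0.05. The fit was also run on simulated data, with normal noise of its own estimated SDs and a small part of the models raised. That run cannot check the noise model or effects of single libraries. Members and lists were chosen with earlier results of these data known. Values per library are given for members changed at least 2-fold, for the 5 most abundant at each time and for the most abundant uncalled member, and in each other list the 2 models with the largest called changes are named, or the 1 called. Members named beyond these were chosen after their values were seen. Alternatives changed the pseudocount, filter, scaling, variance trend, libraries, block, lane average, threshold and member definition, and used the authors' own p-values.

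Same-numbered libraries of the times had deviations correlated at 0.136, 0.133 and -0.102, so barcode numbers were not taken as pairs. Read totals are unknown, so no counting interval was formed. Relative depth was the median over 41 models, each without reads in 6 or more lanes, of the ratio between the libraries' smallest non-zero values.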

Additional observations from a re-analysis of the deposited data

How the results depend on the processing

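The counts of members stayed within 1.5 times under every alternative run. Called higher were 9 to 19 and called lower 18 to 27, with the extremes at an adjusted p below 0.01 and with the authors' deposited p-values. The sources used here do not say how those p-values were formed or adjusted. All members carry the A1 domain text, so that definition gave 13 and 21 again. With each library left out in turn, 10 to 13 were higher and 19 to 23 lower, and with the replicate block, which is no pairing here, 12 and 21. Of 820 values of single members under 16 alternatives 773 kept direction and call, and 33 of 52 members kept both throughout. Calls were gained after trimmed-mean or median-ratio scaling by 2421869 and 2957695, and after median-ratio scaling by 3031923. The log2 fold changes of 7 uncalled members changed sign near 0: 2897600 to 0.015 and 0.019, 2966317 to 0.00066 and 0.0044 and 3084257 to 0.0010 and 0.0047 after trimmed-mean and median-ratio scaling; and, with libraries left out, 1579347 ranged from -0.18 to 0.012, 2026929 from -0.0075 to 0.069, 2948140 from -0.0034 to 0.14 and 2973562 from -0.038 to 0.16. At an adjusted p below 0.01, 1 member without a listed signal peptide and 1 metallopeptidase were higher; with libraries left out, 1 to 2 ammonium transporters were, 2 of them without 96 h library 2. Members held 0.726% (40 h) and 0.590% (96 h) of the total without the 10 models of highest mean, and 0.462% and 0.529% without 2915771, an alternative chosen after seeing the data, as was averaging lanes on the log2 scale for this share. The causes were not tested. Relative depth at 96 h was 0.48 to 0.709 of the deepest library. A value near 1 RPKM stands for fewer reads in 96 h libraries 1 and 2 than in any 40 h library. The part of depth in these changes was not tested.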
